A study of Mus musculus with 10 samples.

Results

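Introns strongly retained in control cells of N2A, a mouse neuroblastoma line, were taken from the intron events of a deposited splicing table. An intron qualified when each of 6 samples gave it 10 or more informative reads (inclusion and exclusion together) and when it had a mean percent spliced in (PSI) of at least 20 in the 3 control samples. PSI is meant as the percentage of a gene's transcripts that keep the intron, which holds only where reads lie at both ends of the intron. Of 189134 introns listed, 101355 had enough reads and 2090 of them qualified (2.06%), in 1705 of the 10463 genes with a measured intron. The introns were chosen by their control PSI, so their control levels are given as a description and support nothing.

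Splicing removes most introns while or soon after the RNA is made. A retained intron often carries a stop codon in the reading frame, and such an RNA is either held in the nucleus or exposed to nonsense-mediated decay once it is translated. Retained introns in mammals are known to be short, rich in G and C and bounded by weaker splice sites, and some belong to the minor U12-type class, which is spliced more slowly. Qk (Quaking) is an RNA-binding protein that recognises ACUAAY-type motifs and regulates alternative splicing.

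The control samples (siNT, n = 3) had received a non-targeting siRNA pool, and the knockdown samples (siQk, n = 3) a pool against Qk. Both pools were used at 40 nM on wells of 100000 seeded cells, and RNA was collected after 72 h. The libraries were stranded and made from polyadenylated RNA, per the labels' protocols, and the cells of both groups are one tumour line with no other genetic change labelled. The series also holds 4 samples of stem-cell-derived neurons at day 7, of which 2 had 100 uM cycloheximide for 12 h, and their introns were not analysed here. RNA came from whole wells, so an intron kept in part of the transcripts of every cell and an intron kept in part of the cells cannot be told apart.

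The reads of exon events totalled 26595944 to 80481173 per N2A sample, and the strongly retained introns had a median of 43.0 to 125 reads per sample. Coverage of Qk was 85.4 ± 4.70 CPM (reads scaled to the sample's total; SD, n = 3) in siNT and 11.1 ± 2.60 CPM in siQk. Of 13 neuroblastoma markers listed, 11 were in the table and 9 exceeded 1 CPM in all 6 samples, among them Stmn2, Chga and Dbh, whereas Nefl and Nefm stayed below it. Summed over its list, the markers of glia, blood and other cells reached 11.3 to 19.2 CPM and the neuroblastoma markers 1484 to 1916 CPM. Both sums were higher in every siQk sample than in every siNT sample, and their part in the intron values was not tested.

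The table counts reads over the 5′ exon-intron junction, over the 3′ intron-exon junction and within the intron, and gives a balance p that is low where these numbers disagree. For 96.6% to 98.1% of introns per sample, the balance p matched, within 0.01, a binomial probability of the lowest of the 3 numbers against the highest. An RNA that keeps the whole intron yields reads at both junctions, while an RNA that starts or ends inside the intron yields reads at one. These kinds of RNA need not be the only ones, and the source of reads at a single junction was not tested. Introns were called balanced where this p was at least 0.05 in all 6 samples, unbalanced where it was below 0.05 in all 6, and mixed otherwise. Of the 2090 introns, 785 were balanced (37.6%), 417 mixed and 888 unbalanced (42.5%). Among the introns with enough reads that did not qualify, 93.7% were balanced and 0.993% unbalanced. Their median siNT PSI was 0.330%, so most had few reads at the junctions or within the intron. The balance p can be low only with enough such reads, so these shares are not comparable with those of the 2090. With few reads, balanced means only that no imbalance was seen. The median of informative reads was 66.0 for balanced and 121 for unbalanced introns that qualified.

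Sequences of the introns that show these types best are given here 5′ to 3′, as read from GENCODE M21 transcripts on mm10 that contain the intron. In whole introns, capitals mark the first 6 and the last 3 bases. The first 4 are short, balanced introns of coding sequence kept in part of the transcripts. They lie in Dennd6b, which encodes an exchange factor for Rab GTPases (chr15:89187051-89187147 for intron 11 and chr15:89185465-89185537 for intron 17, both minus strand), in Lrrc45, which encodes a protein of the centrosome linker (chr11:120718554-120718649, plus strand), and in Slc27a1, which encodes a fatty acid transporter (chr8:71580702-71580766, plus strand).
Dennd6b intron 11: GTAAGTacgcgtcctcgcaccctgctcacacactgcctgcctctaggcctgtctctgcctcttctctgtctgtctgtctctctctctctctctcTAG
Dennd6b intron 17: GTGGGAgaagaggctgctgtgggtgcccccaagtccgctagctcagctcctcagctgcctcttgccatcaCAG
Lrrc45 intron 12: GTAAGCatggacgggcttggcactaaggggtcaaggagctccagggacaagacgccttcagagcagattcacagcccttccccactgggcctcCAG
Slc27a1 intron 7: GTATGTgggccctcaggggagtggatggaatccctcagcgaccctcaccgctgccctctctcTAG

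The next pair is of the opposite kind, balanced introns kept in nearly every transcript and contained in an annotated coding exon, in which no stop codon lies in frame. They belong to Mga, which encodes a Max-binding transcription factor (chr2:119946248-119946364, plus strand), and Ap5s1, which encodes a subunit of an adaptor complex (chr2:131212737-131212825, plus strand).
Mga intron 16: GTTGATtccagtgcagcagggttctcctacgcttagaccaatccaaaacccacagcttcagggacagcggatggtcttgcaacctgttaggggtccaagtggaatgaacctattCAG
Ap5s1 intron 3: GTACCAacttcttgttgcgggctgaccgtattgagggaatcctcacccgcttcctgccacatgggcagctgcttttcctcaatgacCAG

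The last set shows uncommon splice sites. Rps6kb2, which encodes an S6 kinase, has an intron that starts with GC in place of GT (chr19:4158718-4158828, minus strand). For 3 introns with the start of the U12-type class, the 5′ splice site is printed with 3 exon bases in lower case and 6 intron bases in capitals, and the 3′ splice site with the last 2 intron bases in capitals between intron and exon bases. They are intron 6 of Tcea2, a transcription elongation factor gene (chr2:181686247-181686597, plus strand), intron 8 of Pcyt2, which encodes an enzyme of phosphatidylethanolamine synthesis (chr11:120612084-120612462, minus strand), and intron 8 of Mapk11, which encodes a p38 kinase (chr15:89145176-89145374, minus strand).
Rps6kb2 intron 9: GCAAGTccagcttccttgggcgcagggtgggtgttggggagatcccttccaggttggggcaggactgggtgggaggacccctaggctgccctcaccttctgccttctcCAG
Tcea2 intron 6, 5′ splice site: agtATATCC
Tcea2 intron 6, 3′ splice site: gggtccttaaacacctgcACgca
Pcyt2 intron 8, 5′ splice site: tccGTATCC
Pcyt2 intron 8, 3′ splice site: gcttcttaatctggatatAGaca
Mapk11 intron 8, 5′ splice site: actGTATCC
Mapk11 intron 8, 3′ splice site: gtgtttcctgagctaggtAGaca

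The control levels formed a broad range with many introns at its upper end. The median over the 2090 introns was 40.9%, against 0.330% for the introns that did not qualify. The balanced and mixed introns had medians of 31.3% and 31.2%, and the unbalanced ones a median of 77.6%. From 20 to 30% lay 693 introns, of which 360 were balanced. From 95 to 100% lay 411 introns, of which 337 were unbalanced and 52 balanced. In that top range 54.0% of the introns belonged to noncoding transcripts, against 2.89% from 20 to 30%. A PSI of 100 in all 6 samples was reached by 257 introns, 20 of them balanced and 227 unbalanced.

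**Figure D1:**
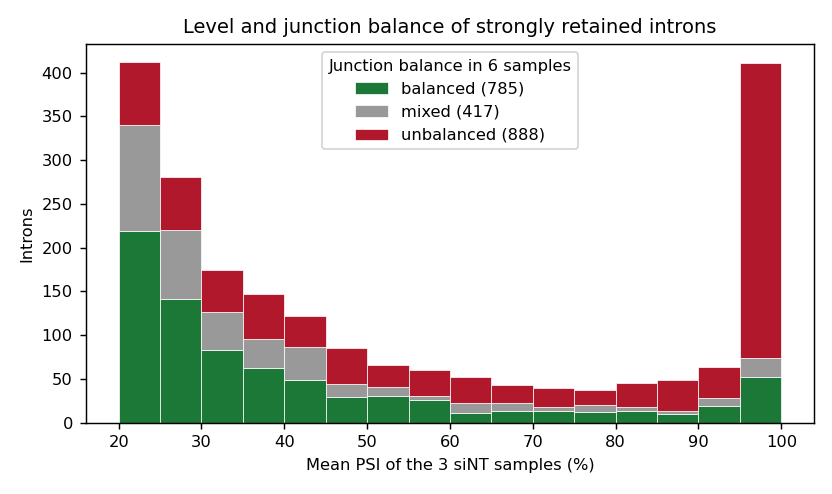
Number of strongly retained introns (vertical axis) by mean PSI of the 3 siNT samples in classes of 5 percentage points (horizontal axis), with colours for the balance of the junction reads in the 6 samples. Balanced introns gather near 20% and the 411 introns from 95% upwards are mostly unbalanced (337).

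At the threshold, the balanced 92 nt intron 2 of Pus3, a pseudouridine synthase gene, had a mean of 20.01%, intron 1 of Apex1, which encodes a base-excision repair endonuclease, 20.02% and intron 2 of 9530077C05Rik 20.02%. Just outside lay introns of Camsap1 (19.99%), Gm20756 (19.99%) and Taf1d (19.98%). The 6 values are alike within their spread between samples, whose SD ran from 1.75 to 9.13.

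In siQk the median of the set was 40.0%, and 1860 of the 2090 introns had a siQk mean of at least 20%. Another 163 introns reached 20% in siQk and not in siNT. Every one of the 6 samples was at 20% or more for 1484 introns, 452 of them balanced. By sample, the median over the set was 43.0%, 41.6% and 40.0% across the siNT replicates and 40.8%, 44.0% and 38.7% across the siQk replicates, so the sample medians of the groups overlapped. Within siNT the median SD was 5.25 percentage points for balanced and 2.54 for unbalanced introns.

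Reads at the ends show what the balance classes hold. Reads over the 5′ and 3′ junctions, summed over the 6 samples, were within 2-fold of each other for 89.0% of the balanced, 28.3% of the mixed and 3.15% of the unbalanced introns. These numbers entered the balance p and are a description. Of the 888 unbalanced introns, 475 had more reads at the 5′ junction and 413 at the 3′ junction, 281 had no read at the lower end, and 227 had no exclusion read in any sample. An annotated exon of the same strand ran over the higher end in 584 of them (65.8%) and over the lower end in 182 (20.5%). Of the 888 introns, 90 lay wholly within such an exon and count at both ends. The annotation was not used by the balance p, and the cause of the imbalance was not tested.

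**Figure D2:**
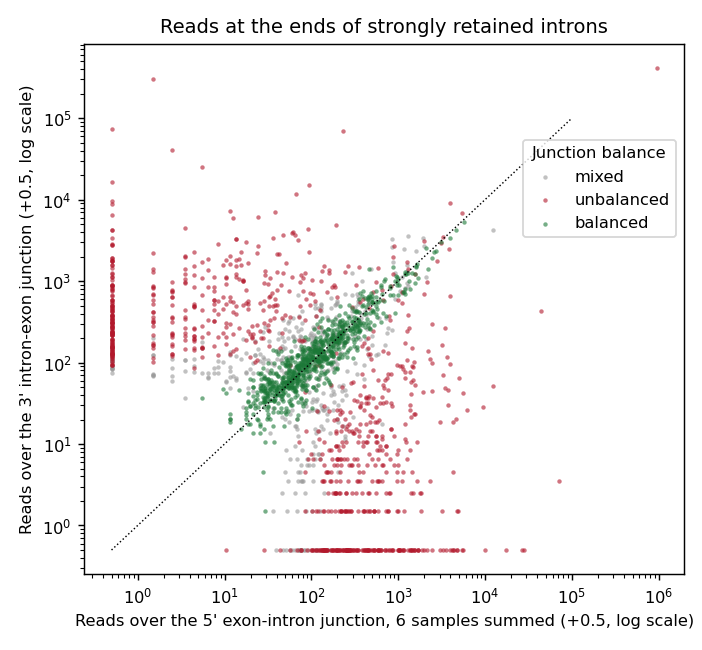
Reads over the 5′ exon-intron junction (horizontal axis) and the 3′ intron-exon junction (vertical axis) of each strongly retained intron, summed over 6 samples with 0.5 added, both axes logarithmic, coloured by balance class, with a dotted line of equality. Balanced introns lie along the line, and most unbalanced ones far from it on either side, 281 of them with no read at one end.

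The extremes were clear cases of reads at one end. Intron 1 of Eno1b, an enolase gene, had a PSI of 100% in every sample with 0 reads at its 5′ junction and 74328 at its 3′ junction. A pair of neighbouring introns of the noncoding gene Gm15564 had 2 and 40540 reads (intron 1) and 71699 and 3 reads (intron 2) at the 5′ and 3′ junctions, and means of 99.9% and 99.96% in siNT. Intron 26 of Kmt2b, a histone methyltransferase gene, stood at 100% in both groups with 2 and 975 reads. Intron 29 of Smarca2, which encodes an ATPase of SWI/SNF chromatin remodellers, had a PSI of 61.0% with 0 and 1563 reads. In these introns a high PSI was reached with nearly all reads at a single end.

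The annotation itself gave some entries. Of the 2090 introns 8 were shorter than 50 nt, all unbalanced, a length class named after its values were seen. The 1 nt introns of Oaz1 (99.4% ± 0.142) and Oaz2 (100%) are annotated where ribosomes shift frame in antizyme mRNAs, so the skipped base is present in the RNA. A 38 nt intron of Ube2d2a, which encodes a ubiquitin-conjugating enzyme, had 3254 reads at its 5′ junction and 3465 at its 3′ junction, near equality, with no body position to count. No body number was given for 27 introns, 25 of them unbalanced.

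Length differed between the classes, with overlap. The quartiles were 159 and 816 nt for balanced and 640.5 and 5347.25 nt for unbalanced introns. The median was 341 nt for balanced, 1117 nt for mixed and 2112.5 nt for unbalanced introns, and 1269 nt for introns that did not qualify. Of the introns of up to 150 nt with enough reads, 288 of 11580 qualified (2.49%), and 188 of the 288 were balanced (65.3%). Of those over 150 and up to 500 nt, 510 of 16597 qualified (3.07%), 297 of them balanced (58.2%). Over 500 and up to 2000 nt, 622 of 36572 qualified (1.70%), 231 of them balanced (37.1%). Above 2000 nt, 670 of 36606 qualified (1.83%), with 69 balanced (10.3%) and 450 unbalanced. The share that qualified was thus lower above 500 nt, and the balanced part of those that qualified was smaller in each longer class.

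**Figure D3:**
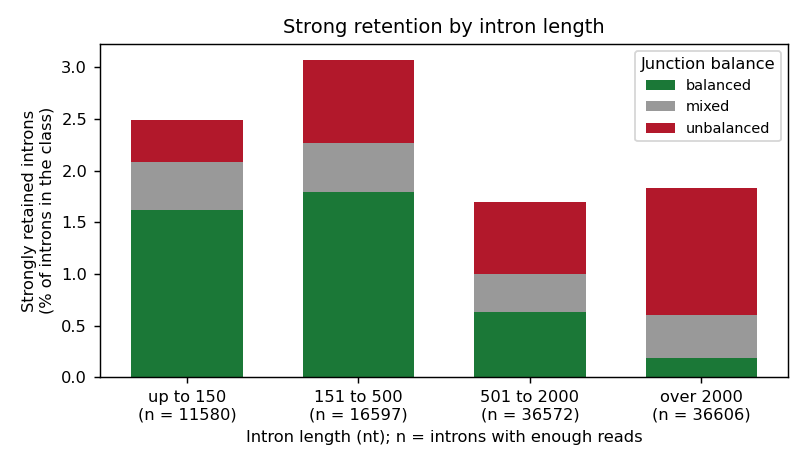
Percentage of introns with enough reads that were strongly retained (vertical axis, from 0) in 4 length classes (horizontal axis), stacked by balance class. The balanced part is tallest from 150 to 500 nt (297 of 16597 introns) and smallest above 2000 nt (69 of 36606).

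The shortest balanced intron was the 65 nt intron 7 of Slc27a1 printed above, at 20.3% ± 3.02 in siNT and 24.1% ± 2.00 in siQk. The longest was the 11086 nt intron 22 of C2cd5, which encodes a protein of insulin-stimulated glucose transport, at 24.3% ± 8.95 and 33.5% ± 13.7. Beyond 2000 nt, balanced introns with high levels were intron 16 of the glycerol kinase gene Gk5 (98.1% ± 1.92), intron 14 of Hcfc2 (96.8% ± 1.35), intron 5 of Mapk8ip3, a scaffold gene of the JNK pathway (59.4% ± 7.79), and intron 4 of 9430015G10Rik (54.8% ± 4.79).

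Depth moved with the rule. Of introns with a median of 10 to 30 reads, 5.81% qualified, against 1.54% from 100 to 300 reads and 1.52% from 1000 reads upwards. The balanced part fell from 2.84% to 0.138% over the same range. The part of read depth in these shares was not tested.

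Position and annotation differed between the classes as well. Coding sequence flanked 78.1% of the balanced and 50.1% of the unbalanced introns, against 95.7% of introns that did not qualify. The first intron of a transcript made up 21.02%, 43.5% and 8.64% of the same 3 sets, and the last intron 20.1%, 30.7% and 9.39%. Noncoding transcripts held 6.62% of the balanced and 25.6% of the unbalanced introns, against 0.345%. Exons of the opposite strand overlapped 6.75% of the balanced and 15.1% of the unbalanced introns, against 4.57% of the rest. An exon event of at least 10% PSI lay inside 5.73% of the balanced, 15.8% of the mixed and 12.2% of the unbalanced introns, against 1.23%. All these shares are descriptions without a test, since introns share genes and libraries.

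Many of the balanced introns were already annotated as retained. A same-strand exon of GENCODE M21 contained the whole intron for 388 of the 785 balanced introns (49.4%), 10.1% of the unbalanced and 5.85% of the introns that did not qualify. A transcript of the retained-intron type did so for 30.7%, 5.63% and 4.96% and a coding transcript for 19.6%, 4.05% and 0.648%. Among balanced introns, containment in a coding exon was found for 12.2% from 20 to 30% PSI and for 47.6% from 80 to 95% PSI. From 95 to 100% PSI it was found for 40.4%. Containment in a retained-intron transcript was found for 33.6%, 14.3% and 7.69% in the same ranges.

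The balanced introns at 100% in both groups, ordered by name where tied, included intron 1 of Ptgir, the prostacyclin receptor gene, with 2702 and 2320 reads at its ends, and intron 11 of Pacsin2, which encodes an endocytic adaptor, with 4603 and 4289. Others were introns of Btbd9, Cacng8, Gm340, Gm11632, 9130221H12Rik and the noncoding RNA gene Tug1, with 170 to 693 reads at the 5′ junction. Such an intron had no read joining its flanking exons in any of the 6 samples, in siNT or in siQk. Mga intron 16, printed above, was at 99.5% ± 0.429 in siNT and 100% in siQk, and Ap5s1 intron 3 at 99.5% ± 0.483 and 98.9% ± 0.968.

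Sequence could be read for introns of at least 50 nt that lie in an annotated transcript, 393 balanced introns and 6292 that did not qualify. These are not a random sample of either set. The median lengths were similar, 217 and 252 nt. The G plus C content had a median of 55.9% in the balanced introns (quartiles 50.3% and 61.2%) and 51.0% in the rest (43.6% and 56.8%). A 5′ splice site with at least 7 of 9 bases of the consensus CAGGTAAGT was found in 27.0% and 37.7%. The median pyrimidine content from base 20 to base 4 before the 3′ end was 70.6% and 76.5%, a difference of a single base. Its quartiles were the same in both sets, 64.7% and 82.4%. The median was 76.5% for balanced introns from 20 to 80% PSI and 70.6% for those from 80% upwards. The ranges between the quartiles overlapped for G plus C content and for pyrimidine content, and none were computed for the 5′ splice site.

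Uncommon splice sites were rare in both sets. GC-AG ends were present in 11 balanced introns (2.80%) and in 54 of the rest (0.858%), and a U12-type start, ATATCC or GTATCC, in 8 (2.04%) and 53 (0.842%). Tcea2 intron 6, an AT-AC intron by the printed ends, had a siNT PSI of 64.7% ± 0.176 and a siQk PSI of 64.0% ± 15.5. Pcyt2 intron 8 stood at 48.8% ± 0.728 and 47.6% ± 6.70, and Mapk11 intron 8 at 36.7% ± 2.17 and 29.9% ± 4.0. Zfp169 and Gm11632 introns with this start were at 100% in all samples. None of those tested was called changed with Qk knockdown (adjusted p = 1.00 by limma for Tcea2, Pcyt2 and Mapk11). Over all introns tested 0.113% were called, so nothing is read from this. Among the GC-AG introns, named after their values were seen, were intron 9 of Rps6kb2 (32.5% ± 7.61), intron 12 of the myotonic dystrophy kinase gene Dmpk (54.8% ± 12.0), intron 8 of Mettl17 (43.7% ± 8.22) and intron 4 of Ankzf1 (33.7% ± 5.62).

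Of the balanced introns in coding sequence with a readable frame, 268 of 308 (87.0%) held a stop codon in frame, against 88.8% of the introns that did not qualify. The share was 88.0% for balanced introns from 20 to 80% PSI and 76.0% (19 of 25) from 80% upwards. A length divisible by 3 with no stop in frame was found in 4.59% and 16.0% of the same groups. The hexamers ACTAAC and ACTAAT, searched on the intron's strand in its first or last 100 bases, were present in 5.60% of the balanced introns and 4.51% of the rest.

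Several genes held many strongly retained introns. Of the 1705 genes 1442 had 1, and 69 had at least 3. Map4k2, which encodes a kinase upstream of JNK, had the most, with 9 of 29 measured introns. Dnhd1, a dynein heavy chain-like gene, had 8 of 24, and Dennd6b (6 of 19), the deacetylase gene Hdac10 (6 of 18) and Lrrc45 (6 of 17) followed. Mst1 (6 of 16) and Sspo (6 of 23) had as many as the last 3 genes, and the tie was broken by name. Of the 35 introns of the first 5 genes, 29 were balanced and 6 mixed. Each of the 5 genes also had introns with means near 0.

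Dennd6b had the highest levels. Its 97 nt intron 11 had a PSI of 83.8%, 74.3% and 80.0% in siNT and 91.3%, 68.1% and 84.9% in siQk. Its 326 nt intron 13 had 80.0%, 76.6% and 83.3% in siNT and 91.2%, 83.6% and 82.6% in siQk. The groups overlapped for both introns, and neither was called. The 136 nt intron 12 between them had 57.9%, 47.8% and 45.6% in siNT and 70.6%, 52.4% and 53.1% in siQk. Its siNT 1 value exceeded those of siQk 2 and siQk 3, so these groups overlapped too. Intron 7 (41.7% ± 6.83), intron 16 (29.3% ± 6.15) and intron 17 (32.0% ± 2.63) were lower. Reads at both ends of intron 11 were nearly equal, with 211 and 198.

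Lrrc45 carried its strongly retained introns in 2 runs, introns 6 to 9 and introns 12 and 13. Intron 13 had a PSI of 64.5%, 75.3% and 48.9% in siNT and 63.5%, 54.6% and 55.1% in siQk. The 96 nt intron 12 had 58.1%, 36.2% and 39.6% in siNT and 54.1%, 53.7% and 39.4% in siQk. For both introns the siQk values lay within the siNT range. The balanced intron 16 of Hdac10 had a siNT PSI of 57.8% ± 2.76 and a siQk PSI of 52.4% ± 8.10, and its other 5 lay between 22.3% and 43.6% in siNT.

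Map4k2 and Dnhd1 had no intron above 50% in siNT. In Map4k2 the 9 siNT means ran from 23.2% to 34.7% and 7 of the 9 introns were shorter than 150 nt, among them the 68 nt intron 3 (27.7% ± 4.99). Intron 20 of Map4k2 had a PSI of 31.3%, 23.1% and 16.0% in siNT and 38.9%, 53.9% and 16.5% in siQk, with 20.8 reads in the sample with fewest. In Dnhd1 the 8 siNT means ran from 21.5% to 42.1%, the highest being that of the 121 nt intron 36. No intron of these 5 genes was called changed in siQk, and 1 of the 6 in Sspo, an unbalanced intron, was. Calls made up 0.113% of all introns tested and 0.575% of the strongly retained ones tested, so nothing is read from these counts.

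**Figure D4:**
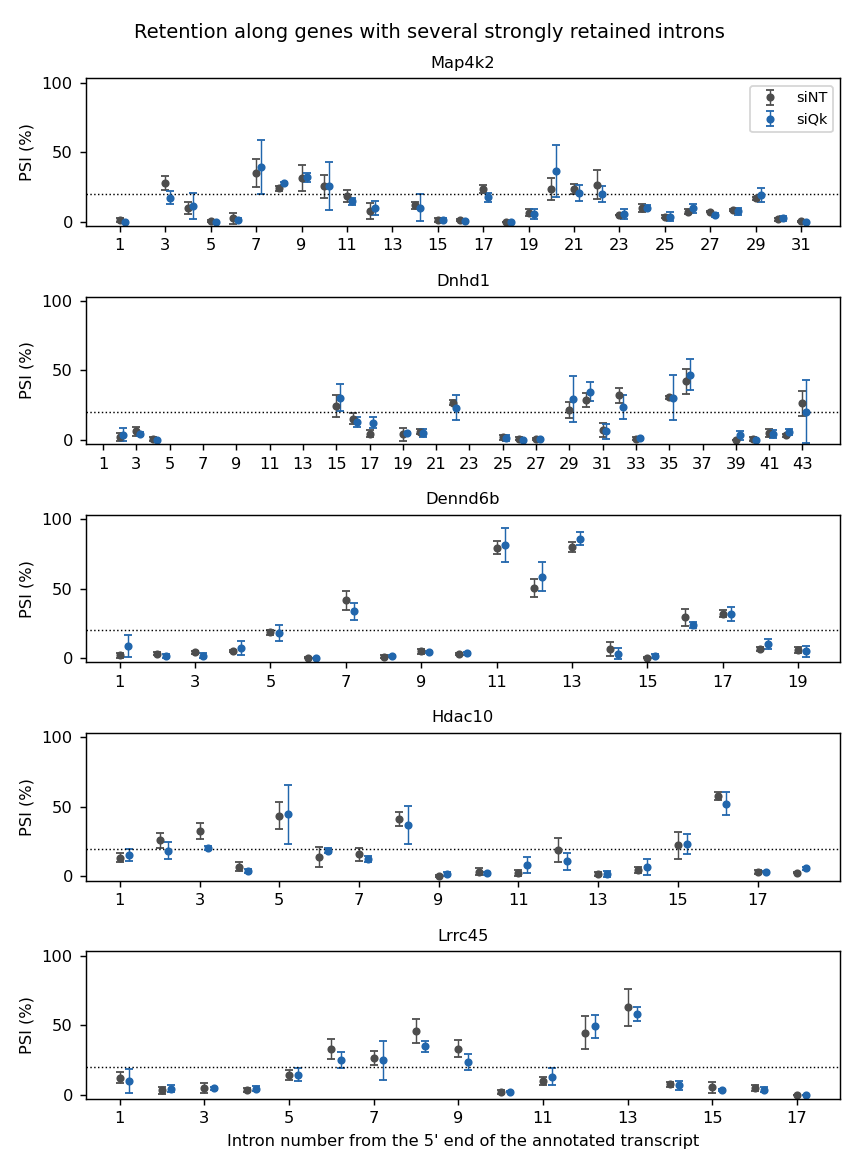
Mean PSI (vertical axis) of each measured intron by its number along the transcript (horizontal axis) in 5 of the 7 genes with at least 6 strongly retained introns (Mst1 and Sspo are not drawn), as mean ± SD of 3 siNT (grey) and 3 siQk (blue) samples, with a dotted line at 20%. Introns above the line stand beside introns near 0, and Dennd6b introns 11 and 13 reach about 80.0% in siNT.

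Gene lists put these numbers beside the 2.06% of all introns with enough reads. Hosts of small nucleolar RNAs and other noncoding RNA genes had 15 of 126 introns strongly retained (11.9%), 5 of them balanced. These 15 lay in 8 of the 22 listed genes with enough reads. Introns of noncoding transcripts as a whole numbered 317 among the 2090 and 342 among the rest, and the list was not compared with them. In that list Snhg14 had an unbalanced intron 3 and intron 9 at 100% and a balanced 97 nt intron at 96.1% ± 6.79. Splicing factors other than SR and hnRNP proteins had 23 of 971 (2.37%), SR and hnRNP proteins 7 of 330 (2.12%), genes of DNA repair 18 of 1085 (1.66%), chromatin regulators 20 of 1561 (1.28%) and factors of mRNA decay, cleavage and export 9 of 792 (1.14%). Genes of ribosomal proteins had 1 of 198 (0.505%), the unbalanced intron 1 of Rpl10 at 88.1% ± 2.58, and aminoacyl-tRNA synthetases 1 of 599 (0.167%), in Cars2 at 20.5% ± 3.40.

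Among splicing regulators, balanced introns ran from low to nearly complete retention. Intron 12 of Clk2, which encodes a kinase of SR proteins, had a PSI of 24.1% ± 2.83 in siNT and 27.1% ± 2.30 in siQk, and was the 1 strongly retained intron of 85 in the CLK and SRPK kinases (1.18%). Intron 9 of Hnrnpa2b1, in the 3′ UTR of an hnRNP gene, had 35.2% ± 3.22 and 34.3% ± 2.22. Intron 1 of Prpf8, the gene of a core spliceosome protein, was balanced at 99.1% ± 0.235 and lay within an annotated coding transcript. By contrast, the first introns of Srsf5 (51.2% ± 11.1), Hnrnpul1 (88.7% ± 1.64) and Hnrnpk (100%) were unbalanced, with 3261 and 70, 3765 and 30, and 0 and 127 reads at the 5′ and 3′ junctions. Intron 7 of Srrm1, which encodes a splicing coactivator, had 3 and 1983.

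In the decay and export list, intron 10 of Nxf1, the mRNA export receptor gene whose intron 10 is known to be retained in human cells, was balanced. Its PSI was 29.3% ± 1.69 in siNT and 29.1% ± 8.06 in siQk, with 1174 and 741 reads at its ends. Intron 7 of Upf1, which encodes the helicase of nonsense-mediated decay, had 45.3% ± 11.2 and 38.4% ± 17.2. In the chromatin list, intron 1 of the methyltransferase gene Setd1a was balanced at 65.9% ± 7.72 and 70.0% ± 4.97. In the repair list, the top 4 by level were introns of Fancc, Msh3 (a pair) and Fance, unbalanced or mixed. Of all these lists, 1 strongly retained intron was called changed in siQk, in Smarcc2, of 19 tested in the chromatin list. Among all introns tested 0.113% were called, and among the strongly retained ones 0.575%, so nothing is read from 1 call.

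Qk knockdown was compared over all introns with a mean PSI from 2 to 98, which left 17664, of them 1738 of the 2090, since 352 stood above 98%. A call needed a limma adjusted p under 0.05 over all 17664 introns and a difference of at least 10 percentage points. By that rule 20 introns changed (0.113%), and 10 of them were strongly retained ones, 5 higher and 5 lower in siQk (0.575% of those tested). Over all introns, 0.0623% were called higher and 0.051% lower. A difference of 10 points is harder to reach from a PSI near 0, where most other introns lie. The 10 calls were spread unevenly over the balance classes, with 8 of 584 unbalanced, 1 of 401 mixed and 1 of 753 balanced introns. Without the p-value, the difference was at least 10 points in 86 of the 1738 upwards and in 144 downwards, against 132 and 157 of all 17664.

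The median difference, siQk minus siNT, was -1.21 percentage points over the strongly retained introns (balanced -1.53, unbalanced -0.18) and -0.21 over all tested. Groups that did not overlap were found in 76 of the 1738 introns with siQk higher (4.37%, against 3.65% of all introns tested) and in 162 with siQk lower (9.32%, against 6.71%). Since siNT values chose the introns, a fall is favoured near the threshold, and nothing is read from this direction.

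The balanced intron that changed lies in Gnas, the gene of the stimulatory G-protein alpha subunit, as a 166 nt first intron in the 5′ UTR of an annotated transcript (chr2:174327942-174328107, plus strand). Its PSI was 30.4%, 27.4% and 31.4% in siNT and 14.2%, 17.5% and 14.6% in siQk. All 3 siQk samples were below all 3 siNT samples. The mean fell from 29.7% ± 2.05 to 15.4% ± 1.84 (log2 odds -1.22, SE 0.22, limma adjusted p = 6.04e-04), with at least 631 reads per sample. Reads at the ends were 872 and 666 over the 6 samples. The call held with each sample left out in turn (adjusted p at most 0.0305), and was lost when PSI itself was fitted.

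The lowest adjusted p was that of the unbalanced 878 nt intron 27 of Smarcc2, which encodes a core subunit of SWI/SNF chromatin remodellers (chr10:128488018-128488895, plus strand). Its PSI was 39.8%, 37.0% and 36.1% in siNT and 83.7%, 79.5% and 80.2% in siQk. The siQk samples were all more than 30 points above the siNT samples. The mean rose from 37.6% ± 1.93 to 81.1% ± 2.23 (log2 odds 2.83, SE 0.26, limma adjusted p = 9.32e-14). The reads lay at the 5′ junction, with 283, 114 and 322 in siNT and 221, 172 and 398 in siQk, while the 3′ junction had 35, 16 and 21 and then 6, 6 and 18. An annotated exon ran over the 5′ end and not over the 3′ end, and a 66 nt exon event inside the intron had a PSI of 100% in both groups. In every sample most junction reads thus lay at the 5′ end of the intron.

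Sept6, Sspo and Ksr1 rose with reads mainly at the 3′ junction, and Strada with mixed balance. The 7492 nt intron 9 of Sept6, a septin gene, had 78.9%, 62.9% and 77.2% in siNT and 96.3%, 95.8% and 95.2% in siQk, without overlap (limma adjusted p = 2.10e-05), with 36 reads at the 5′ and 490 at the 3′ junction. A 45 nt exon event inside it stood at 78.4% ± 0.386 and 89.1% ± 3.06. In intron 78 of Sspo, which encodes the secreted SCO-spondin, PSI was 39.2%, 31.9% and 48.6% in siNT and 77.2%, 85.1% and 86.2% in siQk (limma adjusted p = 2.62e-05), with 21 and 222 reads at its ends and as few as 16.1 in a sample.

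Ksr1 and Strada held alternative exons inside the intron. The 3298 nt intron 18 of Ksr1, a scaffold of the Ras-MAP kinase pathway, had 36.4%, 46.0% and 41.4% in siNT and 91.0%, 90.5% and 59.9% in siQk (limma adjusted p = 9.63e-04), and a 283 nt exon event inside it moved from 34.9% ± 6.97 to 86.6% ± 12.8. It had 4 reads at the 5′ and 210 at the 3′ junction, and the call was lost without siQk 2 (the highest adjusted p with a sample left out was 0.0738). The 13343 nt intron 2 of Strada, which encodes a pseudokinase that activates Lkb1, had 51.5%, 39.0% and 29.5% in siNT and 86.7%, 61.5% and 60.4% in siQk (limma adjusted p = 0.0455). Exon events of 58 and 29 nt inside it stood at 43.8% ± 6.30 and 32.0% ± 5.69 in siNT and at 66.1% ± 11.9 and 67.3% ± 7.85 in siQk. The Strada call was lost without siNT 2, siNT 3, siQk 1 or siQk 2 (adjusted p up to 0.363).

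The other introns that fell were unbalanced. Intron 4 of Ifi30, a lysosomal thiol reductase gene, lies 667 nt long in a noncoding transcript and had 70.8%, 69.8% and 69.8% in siNT and 45.4%, 54.1% and 45.8% in siQk (limma adjusted p = 5.37e-05), with 191 and 4837 reads at its ends. The 852 nt intron 9 of Eps15, an endocytic adaptor gene, had 29.9%, 45.0% and 49.6% in siNT and 16.9%, 21.9% and 22.2% in siQk (limma adjusted p = 0.00364), with 615 and 9 reads. Its call was lost without siNT 2 or siNT 3 (adjusted p up to 0.168). In these introns, too, all siQk samples lay below all siNT samples.

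The calls of Tradd and Agbl5 were each lost with several samples left out. The 534 nt intron 2 of Tradd, an adaptor gene of the tumour necrosis factor receptor, had 35.3%, 31.8% and 32.5% in siNT and 22.9%, 14.9% and 13.5% in siQk (limma adjusted p = 0.0158), with 38 and 601 reads, and lost its call without siNT 3, siQk 2 or siQk 3 (adjusted p up to 0.276). The 1038 nt intron 1 of Agbl5, which encodes a tubulin deglutamylase, had 82.9%, 61.2% and 69.6% in siNT and 48.6%, 51.3% and 52.7% in siQk (limma adjusted p = 0.0472), with 684 and 48 reads, and its call was kept only without siNT 2 (adjusted p up to 0.694). When limma was run on PSI itself, Smarcc2 was the 1 of the 10 that passed. With weights for the sampling variance, the calls of Ksr1, Eps15, Strada and Agbl5 were lost (limma adjusted p = 0.355, 0.284, 0.406 and 0.340).

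**Figure D5:**
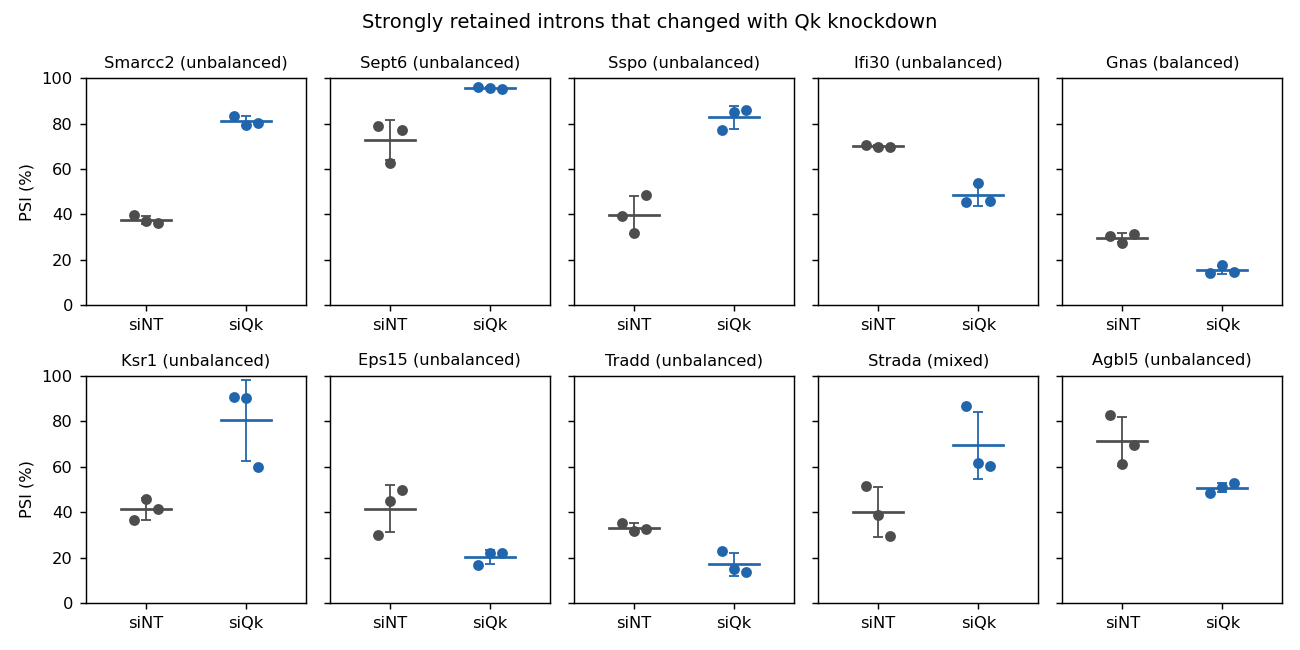
PSI (vertical axis, 0 to 100%) in each siNT (grey) and siQk (blue) sample of the 10 strongly retained introns called changed, with the mean as a line and the SD as error bars (n = 3 each), ordered by adjusted p. The 3 siQk points lie apart from the 3 siNT points in all 10 panels, and Gnas is the balanced one.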

How the data were processed

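Splicing was measured by RNA sequencing in 3 siNT and 3 siQk samples of N2A cells. The authors deposited, per the file headers, a PSI percent for every event in every sample, laid out as vast-tools does. Positions are on mm10 (submitters' processing notes). The software versions and the aligner are not given in the sources used here. Each percent has a text cell of other kinds of value, also deposited by the authors, that holds the junction and body reads, the balance p and the inclusion and exclusion reads. The other tables of the series, with fractions and scores for microexons, were not used.

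Introns with a mean PSI from 2 to 98 entered limma 3.58.1 (R 4.3.3; two-sided robust moderated test whose variance trend follows each intron's mean log sampling variance) on log2((inclusion reads + 0.5)/(exclusion reads + 0.5)), with Benjamini-Hochberg adjustment over 17664 introns. Fold values on this scale understate changes at low reads. Coverage per gene is the sum of its exon-event reads in CPM. Annotation and intron sequence came from GENCODE M21, with bedtools 2.31.1; pandas 2.3.3, version 1.17.8 of data.table, Python 3.11.15 and matplotlib 3.10.9 were also used. The fit was tested on simulated data with known changes.

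The replicates are labelled as biological replicates. Over 723 strongly retained introns with at least 50 reads in every sample, squared differences between samples of a group averaged 1.84 to 4.67 times the sampling variance. Over all introns tested, with no such minimum, the ratio was 0.839 to 1.38. The samples were kept as separate replicates. The depth limits each PSI, and reads are not independent molecules. The rule and the lists were chosen with earlier results of these data known. Introns were named by rule: the highest balanced ones in all and per length class, every call, up to 4 per gene list, the 5 genes with most such introns (ties by name), the shortest and longest, the highest with a U12-type start, those nearest the threshold and those with the lowest balance p; exceptions are stated where they occur. Alternatives covered the pseudocount, filters, weights, the tested scale, the call rule, balance, a replicate block, the rule for members and leaving out each sample.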

Additional observations from a re-analysis of the deposited data

How the results depend on the processing

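Over the 10 strongly retained introns called, 107 of 140 calls under the alternatives were kept and 33 lost. The rules of adjusted p alone (10 of 10 kept) and of 15 points (9 of 10 kept) reused the main fit. The former keeps every call by construction. Their groups do not overlap, so leaving out 1 sample could not turn a direction. The number of calls was 1 with limma on PSI, 78 when a difference of 15 points alone was required, 1 among introns with balanced junctions, and 7 to 29 when 1 sample was left out (17 without siNT 1, 29 without siQk 1). Over all introns, 20 calls became 1 with limma on PSI, 37 by adjusted p alone, 92 by 15 points, 6 with balanced junctions, and 11 (without siQk 2) to 44 (without siQk 1) with 1 sample left out; the cause was not tested. Deviations of same-numbered samples correlated weakly, at 0.11, 0.01 and 0.12, and those of other pairs at -0.15 to 0.04. For siNT 1 and siNT 3 the best match was the siQk sample of their own number, and for siNT 2 it was siQk 1 (0.02). Whether the replicate numbers pair the samples was not tested. With the replicate block, 8 strongly retained introns (7 shared) and 14 of all introns were called, and the calls of Tradd, Strada and Agbl5 were lost; that of Agbl5 was also lost without the filter on mean PSI (limma adjusted p = 0.0622). Choosing the introns by the mean of all 6 samples or of siQk gave 13 calls each, 8 higher and 5 lower by all 6 and 10 higher and 3 lower by siQk, so the split of directions depends on the group that chose the introns. The number of introns that qualified was 2785 at 15%, 1397 at 30%, 1582 with 20 reads, 2069 from summed reads, 785 when balanced and 2006 to 2171 without 1 siNT sample. Medians of 43.0 to 125 reads per sample limit the precision of each PSI.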

Other observations

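Of the 20 introns called changed, the 10 that were not strongly retained in siNT include balanced ones. Adjacent introns of Cacnb1, a calcium channel subunit gene, fell in siQk. The 250 nt intron had a PSI of 29.2%, 18.9% and 11.7% in siNT and 6.52%, 3.37% and 2.96% in siQk (limma adjusted p = 0.00147). The 1219 nt intron had 18.9%, 13.9% and 13.5% in siNT and 0.560%, 1.95% and 3.68% in siQk (limma adjusted p = 1.34e-04). All siQk samples were below all siNT samples for both introns. A balanced intron of Rbl1, which encodes a retinoblastoma-like protein, rose from 3.56% ± 0.857 to 16.8% ± 6.01 (limma adjusted p = 0.00275).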
